A study of Sus scrofa with 21 samples.

Results

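The ISG15 conjugation system was examined in whole blood of 60-day-old pigs. Its members are the ubiquitin-like modifier ISG15, the activating enzyme UBA7, the conjugating enzyme UBE2L6, the ligases HERC5 and HERC6, and the protease USP18. Members were chosen by name, as every probe whose gene name or description in the scanner files gives one of these symbols. By this rule, 5 of the 60305 probes of the array were members, and they represented 3 of the 6 genes, ISG15, HERC5 and USP18. One further probe carries only a locus name that RefSeq (Sscrofa11.1) assigns to HERC5, and it was added, which gave 6 probes. No probe was named for HERC6, UBA7 or UBE2L6, and these genes were not analysed here.

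ISG15 is made after stimulation by type I interferon and is joined to other proteins by a chain of enzymes like that of ubiquitin. UBA7 activates it, UBE2L6 carries it, and HERC5 (in humans) or HERC6 (in mice) attaches it to newly made proteins. USP18 removes it again and also binds the interferon receptor, where it limits further signalling. In blood leukocytes, these genes belong to the group commonly read as an interferon signature.

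The study compared SLAdd (DD) minipigs, an inbred line homozygous at the swine leukocyte antigen locus and kept in France, with Large White (LW) pigs as the control breed. All pigs had the same age and farm and ate a standard diet ad libitum, and the labels name no other treatment. Total RNA of 10 DD pigs from 5 litters and of 11 LW pigs from 6 litters was hybridized to one-colour Agilent arrays, with 1 array per pig on 3 chips that hold both breeds. Breed is thus compared in 1 inbred herd against 1 control breed, and all but 1 of the pigs had a sibling among the samples.

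Between 44.7% and 61.0% of probes were well above background on the DD arrays, against 53.0% to 63.8% on the LW arrays, and 0 probes were saturated. Array brightness, taken as the 75th percentile of an array's processed signal on the log2 scale, ranged from 6.56 to 8.49 in DD pigs and from 7.37 to 8.62 in LW pigs. The DD arrays were dimmer in the median, at 7.64 against 8.41. Their median share of probes well above background was also lower, at 51.9% against 59.7%. Breed and array brightness are thus partly confounded. The markers of the main blood cell types were measured, with 4 to 6 of the 6 genes listed for each cell type tested.

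The probe sequences are shown because they decide which transcript each value reads. They were copied from the array files, 5′ to 3′, in lower case. Both ISG15 probes read nearly the same stretch of the transcript, with 55 bases in common and 1 difference, T44C, counted from 1 at the 5′ end of the first probe. The capital letter marks that base, which is at position 49 of the second probe.
ISG15 probe 1: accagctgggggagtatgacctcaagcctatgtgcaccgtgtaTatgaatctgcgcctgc
ISG15 probe 2: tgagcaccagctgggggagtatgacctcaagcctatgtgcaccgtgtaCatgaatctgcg
A further spot without a gene name carries the same 60 letters as ISG15 probe 2, and so measures it again on each array.

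The probes of HERC5 and of USP18 share no run of 20 bases with any other probe on the array. The position of HERC5 probe 1 in the transcript is not known. HERC5 probe 2 is the one named by locus, and USP18 probe 2 starts at base 391 of the transcript given in the array file. They are shown whole, to set them beside the other probe of each gene.
HERC5 probe 2: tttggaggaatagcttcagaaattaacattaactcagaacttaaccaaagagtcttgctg
USP18 probe 2: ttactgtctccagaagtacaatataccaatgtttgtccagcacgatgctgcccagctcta
Of HERC5 probe 1, the probe named by symbol, the first 30 bases are cagataaggctgttaaaacaaagtgaccct. USP18 probe 1 starts further downstream, at base 1496, and its first 30 bases are catgtgactgtactggcatgtcctggttgt. HERC5 and HERC6 are neighbours in RefSeq, and whether the HERC5 probes also bind HERC6 transcripts was not tested.

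ISG15, the modifier itself, was higher in DD blood than in LW blood. Its log2 intensity had a lowest value of 12.9, a median of 14.1 and a highest value of 16.1 in the 10 DD pigs. In the 11 LW pigs the lowest was 12.6, the median 13.2 and the highest 14.1. The groups overlapped, but 6 of 10 DD pigs were above every LW pig, and 1 DD pig, DD_01, was in the range of the lower LW pigs. The means were 14.1 ± 0.82 (SD, n = 10) and 13.3 ± 0.42 (SD, n = 11). The log2 FC, DD minus LW, came to 0.88 with an SE of 0.26 (limma adjusted p = 0.0228), which is a 1.84-fold difference with a 95% confidence interval from 1.27 to 2.67. In whole blood, more cells that express a gene and more RNA per cell cannot be told apart.

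HERC5, the ligase, was also higher in DD blood. Its log2 intensity ran from 9.01 over a median of 10.18 to 11.52 in DD pigs, and from 8.92 over 9.39 to 10.24 in LW pigs. Of the 10 DD pigs, 4 were above every LW pig, and DD_01 was again among the lowest of all pigs. The means were 10.2 ± 0.68 (SD, n = 10) and 9.45 ± 0.37 (SD, n = 11). Its log2 FC came to 0.73 with an SE of 0.22 (limma adjusted p = 0.0230), a 1.66-fold difference with a 95% confidence interval from 1.22 to 2.27.

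USP18, the protease, did not pass the threshold. Its log2 intensity ran from 7.33 over a median of 8.07 to 10.30 in DD pigs, and from 7.07 over 7.84 to 8.48 in LW pigs. Apart from 2 DD pigs, all DD values were within the LW range. The means were 8.23 ± 0.82 (SD, n = 10) and 7.86 ± 0.46 (SD, n = 11), and the log2 FC of 0.38 had an SE of 0.27 (limma adjusted p = 0.288). The 95% confidence interval of this log2 FC, from -0.17 to 0.93, includes both 0 and the estimate for ISG15. Whether the members differed in the size of the change was tested on the log ratio of litter means, with 3 comparisons chosen after the values were seen. The breed difference of ISG15 exceeded that of USP18 by 0.49 on the log2 scale (two-sided exact permutation p = 0.0844, adjusted p = 0.253). For HERC5 against USP18 the excess was 0.33 (exact p = 0.271), and for ISG15 against HERC5 it was 0.16 (exact p = 0.173). A difference in response between the members was therefore not detectable with these litters.

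**Figure D1:**
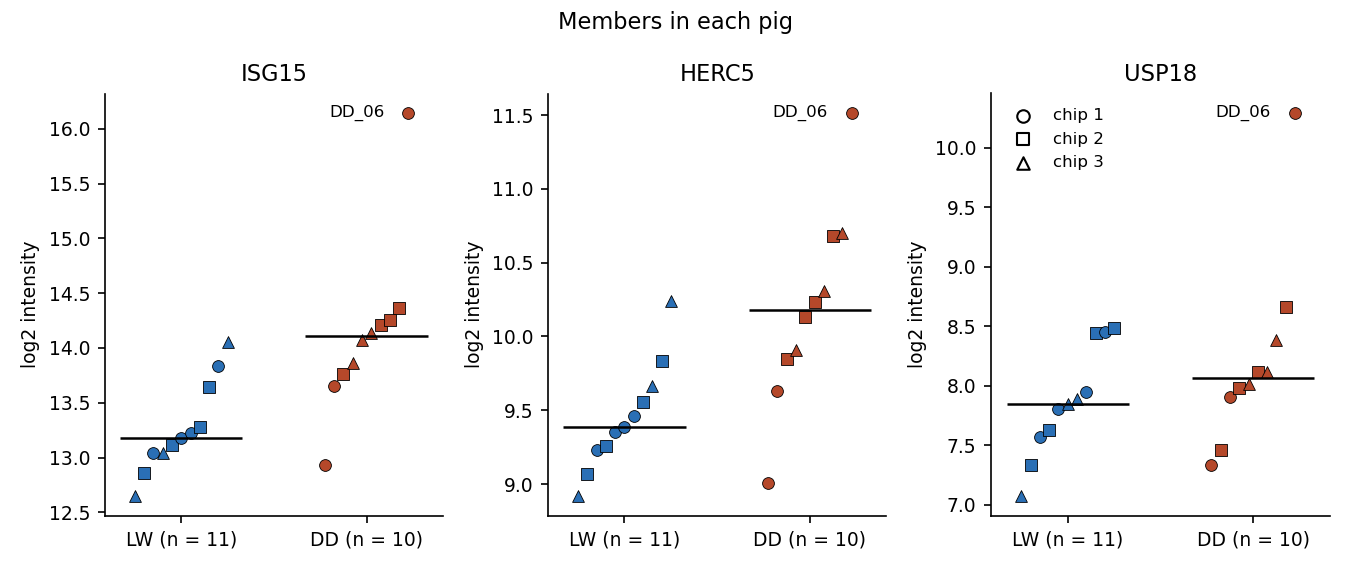
Log2 intensity (y axis) of ISG15, HERC5 and USP18 in each LW and DD pig, with the chip as the symbol and the breed median as a line. For ISG15, 6 of 10 DD pigs are above all LW pigs, for HERC5 4 of 10, and for USP18 2 of 10, and DD_06 is the highest pig in each panel.

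Thus 2 of the 3 measured members passed the threshold, both higher in DD pigs. Among all 10259 genes tested, 23.7% passed, with 11.1% higher and 12.6% lower in DD pigs. With so large a share of all genes called, a call alone only places ISG15 and HERC5 among 1135 genes that were higher in DD blood. The breeds were fully separated, with all DD pigs above all LW pigs, for 0.136% of the genes and for 0 of the 3 members.

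The probes of each gene gave similar differences. Of the 6 member probes, 4 passed the threshold, against 21.7% of the 45228 probes tested. The log2 FC was 0.91 (limma adjusted p = 0.0210) for ISG15 probe 1 and 0.85 (limma adjusted p = 0.0281) for ISG15 probe 2. The unnamed spot with the letters of ISG15 probe 2 gave 0.83 (limma adjusted p = 0.0312). On the same array, it differed from ISG15 probe 2 by a median of 0.0957 and by at most 0.182 on the log2 scale, so the repeat error of a spot was small beside the breed difference. For HERC5, probe 1 had a log2 FC of 0.75 (limma adjusted p = 0.0233) and the locus-named probe 2 had 0.72 (limma adjusted p = 0.0272). These 2 probes share no run of 20 bases, and over the 21 pigs, with breed and chip means removed, they correlated at r = 0.983.

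The USP18 probes were less alike. Their log2 FC was 0.31 (limma adjusted p = 0.472) for probe 1 and 0.46 (limma adjusted p = 0.216) for probe 2, and they correlated at r = 0.724 in the same way. USP18 probe 2 was well above background on 6 of 10 DD arrays and 9 of 11 LW arrays, while every other member probe was well above background on all arrays. The SE of the log2 FC was 0.30 for probe 1 and 0.26 for this dimmer probe 2.

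**Figure D2:**
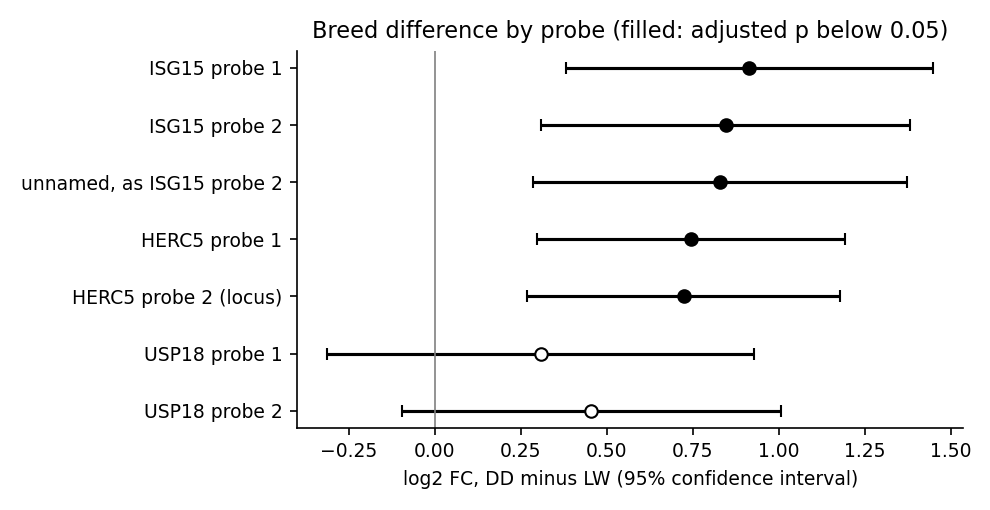
Log2 FC between breeds (x axis, DD minus LW) of each probe of ISG15, HERC5 and USP18 and of the unnamed spot with the same letters as ISG15 probe 2, with 95% confidence intervals. The ISG15 and HERC5 probes lie between 0.72 and 0.91 with intervals above 0, and the intervals of both USP18 probes include 0.

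The difference was read on each chip. For ISG15 the DD mean exceeded the LW mean by 0.92 on chip 1, 0.92 on chip 2 and 0.78 on chip 3. For HERC5 the excess was 0.69, 0.79 and 0.70. For USP18 it was 0.57, 0.08 and 0.57. A breed by chip interaction was not called for ISG15 (limma adjusted p = 0.975), HERC5 (limma adjusted p = 0.986) or USP18 (limma adjusted p = 0.844). It was called for 0 of all 10259 genes, so the lack of a call is not particular to the members. With so few pigs of each breed per chip, it does not show that the chips agree. The chips differed in spread, since the SD of ISG15 among DD pigs was 1.69 on chip 1, which holds both the highest DD pig and the lowest, but 0.27 on chip 2 and 0.14 on chip 3.

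Siblings are not independent, so litter means were also compared, after removal of the chip effect. The 5 DD litters had ISG15 means from 13.6 to 15.2, and the 6 LW litters from 12.9 to 13.7. The means of the litters differed by 0.89 (two-sided exact permutation over 462 divisions, p = 0.00649, where 0.00216 is the smallest p possible), and 4 of 5 DD litters were above all LW litters. For HERC5, the DD litters ranged from 9.91 to 10.94 and the LW litters from 9.03 to 9.84, with no overlap and a difference of 0.73 (exact permutation p = 0.00433). For USP18, the difference of 0.40 was within the spread of the litters (exact permutation p = 0.251). Littermates could differ as much as the breeds did. Over 10 sibling pairs, the gap in ISG15 had a median of 0.56 and a range from 0.093 to 1.80. For HERC5 the gaps ran from 0.059 to 1.56, and for USP18 from 0.033 to 1.43.

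The pig DD_06 had the highest value of all 21 pigs for ISG15, HERC5 and USP18 and for each of their probes. Its log2 intensities were 16.1 for ISG15, 11.5 for HERC5 and 10.3 for USP18, while the next DD pig had 14.36, 10.702 and 8.67. Its sibling DD_11, on another chip, had 14.3, 10.2 and 8.67. The array of DD_06 was the brightest of the DD arrays, at 8.49, which is within the range of the LW arrays. Over all pigs, with breed and chip means removed, array brightness correlated with ISG15 at r = 0.262, with HERC5 at r = 0.258 and with USP18 at r = 0.385, and the differences with array brightness as a covariate are given with the other settings. Without DD_06, the log2 FC was 0.61 for ISG15 (limma adjusted p = 0.0136), 0.54 for HERC5 (limma adjusted p = 0.0213) and 0.12 for USP18 (limma adjusted p = 0.659). The calls of ISG15 and HERC5 were thus made without this pig too, with smaller differences.

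ISG15 and HERC5 varied together from litter to litter within breeds. With breed means subtracted, their 11 litter means correlated at Pearson r = 0.935 (exact permutation p = 0.000856, adjusted over 2 relations p = 0.00171) and Spearman rho = 0.882 (exact permutation p = 0.00236, adjusted p = 0.00472). Without the 2 litters farthest from the median of ISG15, r was 0.760 (exact permutation p = 0.0431). ISG15 and USP18 gave r = 0.661 (exact permutation p = 0.123) and rho = 0.373 (exact permutation p = 0.281), and r = -0.0856 without those 2 litters, so the size of that correlation rested on them. Litters share chips, which were corrected for, and arrays share the depth of their labelling.

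**Figure D3:**
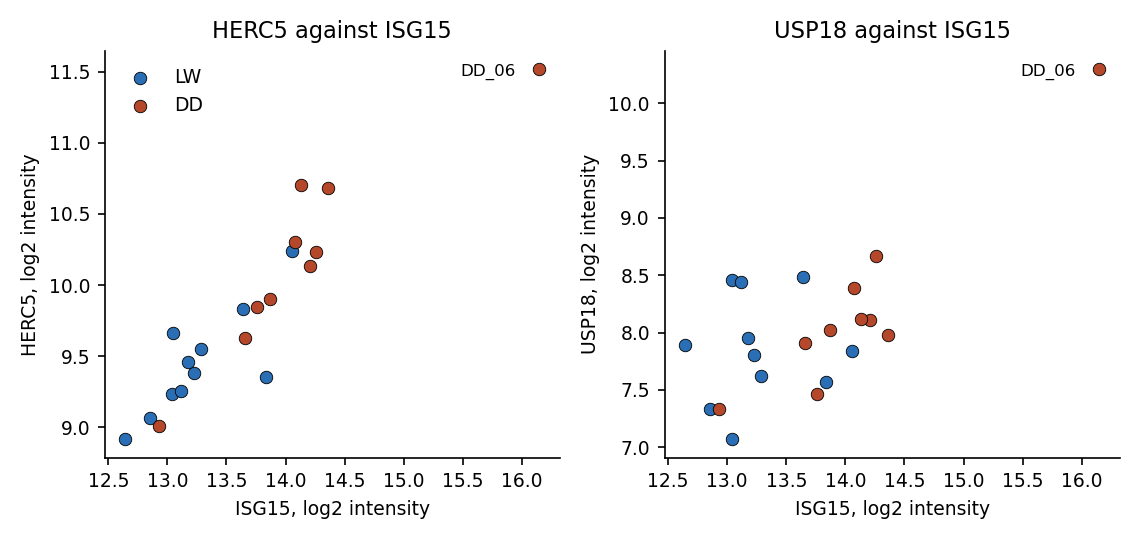
Log2 intensity of HERC5 (left) and USP18 (right) against that of ISG15 in each pig, as deposited, with the breeds in colour. HERC5 follows ISG15 in both breeds, while the USP18 values away from DD_06 are spread between 7.07 and 8.67.

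The genes most like ISG15 over the 21 pigs, after removal of breed and chip means, were looked up among 10256 genes as a description. Only IFIT5 (r = 0.944), a binder of viral RNA, was above HERC5 (r = 0.937), whereas 52 genes were above USP18 (r = 0.737). The next were DDX58 (r = 0.921), the RNA sensor RIG-I, and RSAD2 (r = 0.920), the antiviral enzyme viperin. OASL (r = 0.905), IFIT2 (r = 0.898), MX2 (r = 0.897) and the locus LOC100522887 (r = 0.893) followed, and then ISG20 (r = 0.869), an exonuclease, EIF2AK2 (r = 0.861), the kinase PKR, and IFIH1 (r = 0.857), the sensor MDA5. Being like ISG15 from pig to pig did not go with a breed difference in each case, as OASL had a log2 FC of -0.04 (limma adjusted p = 0.935). Without DD_06 the correlation with ISG15 was 0.880 for IFIT5, 0.874 for HERC5 and 0.365 for USP18. The pigs share litters and arrays differ in brightness, and no test is attached to these values.

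The genes upstream of ISG15 showed no call over all pigs, and 1 without DD_06. Of 8 genes of the interferon receptor and of the transcription factor complex ISGF3, 7 were tested and 0 passed at an adjusted p of 0.05 in limma, while JAK1 and IFNAR2 had unadjusted p values of 0.0484 and 0.0328, where 39.4% of all genes had an unadjusted p under 0.05. Their median log2 FC was 0.11, beside -0.06 over all genes, of which 23.7% passed. The receptor chains IFNAR1 and IFNAR2 had log2 FC values of -0.14 and -0.22. IFNAR2 was read by 1 probe, with mean log2 intensities of 17.4 in DD pigs and 17.6 in LW pigs. These are above the means of the actin gene ACTB, at 16.7 and 17.1, and whether the probe reads IFNAR2 was not tested. The kinases JAK1 and TYK2 had -0.34 and 0.11, and STAT2 and IRF9, which belong to ISGF3, had 0.26 and 0.14. SOCS1, an inhibitor of the kinases, was not tested. Without DD_06, the value of this IFNAR2 probe was lower (log2 FC -0.26, limma adjusted p = 0.0452), and 0 of the 7 were higher. In that setting more genes passed in all, with 15.1% of the 10259 genes higher and 17.9% lower, and the counts without DD_06 in the other lists are to be read against these shares.

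Other proteins are known to attach, remove or bind ISG15. They were listed together with SKP2, for which none of these roles is claimed here. Of the 10 genes of this list, all tested, 1 was higher and 1 lower in DD pigs, beside 11.1% and 12.6% of all genes. The median log2 FC was -0.26. USP14, a deubiquitinase of the proteasome that also reacts with ISG15, was higher (log2 FC 0.80, limma adjusted p = 0.0112). ARIH1, a ligase that works with UBE2L6, was lower (log2 FC -0.65, limma adjusted p = 0.0157). It was read by 1 dim probe, with mean log2 intensities of 3.69 in DD pigs and 4.33 in LW pigs. Both are below the means of the dim USP18 probe 2, at 5.54 and 5.12, and its signal above background was not tested. TRIM25, a ligase induced by interferon, had a log2 FC of 0.35 (limma adjusted p = 0.0681). ITGAL and ITGB2, the subunits of the integrin LFA-1 that binds free ISG15, had -0.39 (limma adjusted p = 0.309) and -0.37 (limma adjusted p = 0.0575). USP24, USP5, USP16 and USP13, proteases of ubiquitin, had -0.32, -0.21, -0.18 and 0.04, and SKP2, a ligase subunit, had -0.49, none of them past the threshold. Without DD_06, 1 of the 10 was higher and 3 were lower, beside 15.1% and 17.9% of all genes.

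The relatives of the members had log2 FC values below 0, but only 4411 of all 10259 genes had a value above 0. Of 7 paralogs, 6 were tested, of which DD pigs had 0 higher and 2 lower, beside 11.1% and 12.6% of all genes. The median log2 FC was -0.20, beside -0.06 over all genes. HERC1, a giant ligase of the HERC family, was lower (log2 FC -0.40, limma adjusted p = 0.0167), as was UBA6, an activating enzyme for ubiquitin (log2 FC -0.46, limma adjusted p = 0.0478). HERC2 and HERC3 had -0.04 and -0.16. UBA1, the main activating enzyme for ubiquitin, had -0.24, and UBE2L3, the paralog of UBE2L6, had -0.10. HERC4 was not tested.

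The machinery of the other ubiquitin-like modifiers, such as SUMO, NEDD8 and UFM1, was read from 30 genes. Of these, 27 were tested, and 2 were higher and 3 lower in DD pigs, beside 11.1% and 12.6% of all genes. The median log2 FC was -0.16. SENP7, a SUMO protease, was higher (0.64, limma adjusted p = 0.0142), as was the modifier NEDD8 (0.42, limma adjusted p = 0.0337). Among the lower genes was ATG3, which conjugates the LC3 proteins (-0.32, limma adjusted p = 0.0289). Without DD_06, 3 of the 27 were higher and 7 lower, beside 15.1% and 17.9% of all genes.

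The other interferon-stimulated genes were mostly above 0 in log2 FC. Of 30 genes listed, 25 were tested, and 10 were higher and 0 lower in DD pigs, beside 11.1% and 12.6% of all genes. Of the 25, 21 had a log2 FC above 0, beside 4411 of all 10259 genes. The median was 0.57, beside -0.06 over all genes. The 6 with the smallest p were IFIT1 (0.82, limma adjusted p = 0.00143), MX2 (1.41, limma adjusted p = 0.00462), MX1 (1.47, limma adjusted p = 0.0107), IRF7 (0.57, limma adjusted p = 0.0111), IFI44 (0.51, limma adjusted p = 0.0138) and IFIT5 (1.08, limma adjusted p = 0.0145). IFIT1 binds viral RNA, the MX proteins are antiviral GTPases, and IRF7 is a transcription factor that raises interferon itself. Without DD_06, 9 were higher and 1 lower, beside 15.1% and 17.9% of all genes, with a median of 0.43. The lower gene, named here after its value was seen, was PARP9 (-0.41, limma adjusted p = 0.0221).

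**Figure D4:**
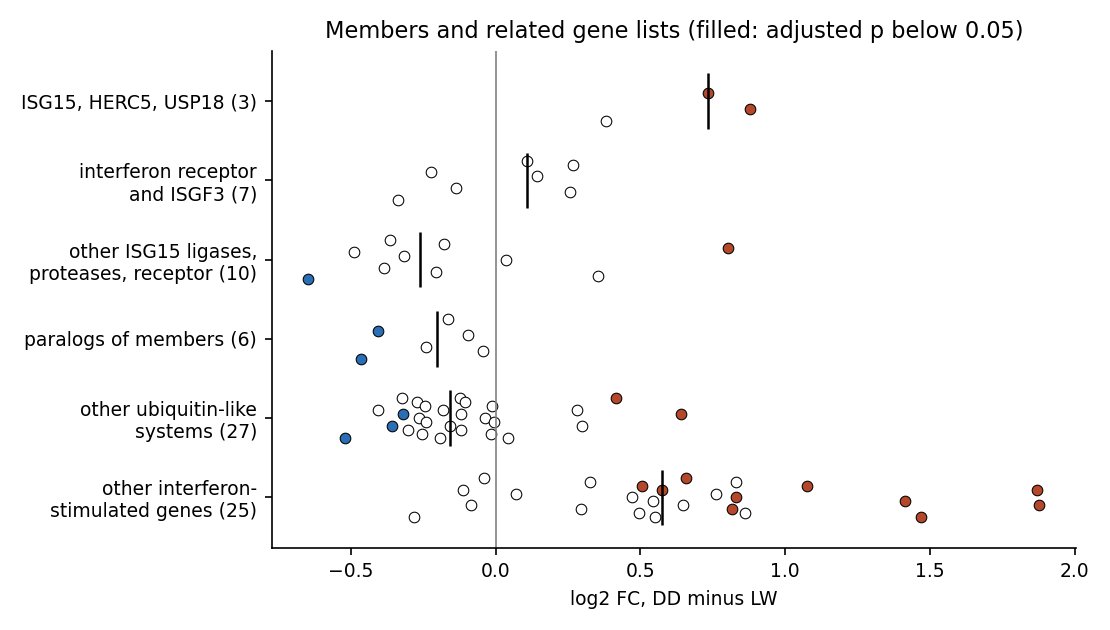
Log2 FC between breeds (x axis, DD minus LW) of the 3 measured members and of the tested genes of 5 related lists, with the number of genes in brackets, the median as a line and calls filled. The interferon-stimulated genes have a median of 0.57, while the median of the paralogs is -0.20 and that of the other ubiquitin-like systems is -0.16.

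DD_06 was the highest of the 21 pigs for 23 of the 25 interferon-stimulated genes tested (92.0%), against 5.20% of all genes tested. The same count was 2 of 7 in the interferon receptor and ISGF3 list. It was 1 of 10 in the list of other ISG15 ligases, proteases and receptor, which includes SKP2. Among the paralogs it was 0 of 6, and in the other ubiquitin-like systems 2 of 27. These counts were made after the values of DD_06 were seen.

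The markers of blood cell types were set beside the members. Their counts are to be read beside the 11.1% of all genes that were higher and the 12.6% that were lower in DD pigs. With 4 to 6 genes per cell type, counts this small do not set a cell type apart from that share. Of the 6 T cell markers tested, 0 were higher and 2 lower in DD pigs (mean log2 level 8.68 to 9.93 in DD pigs and 9.06 to 10.1 in LW pigs). Of 5 reticulocyte markers tested, 2 were higher and 0 lower (13.1 to 13.9 and 12.5 to 13.8). Of 6 monocyte markers, 1 was higher and 1 lower (7.46 to 9.15 and 7.89 to 9.11), and of 5 neutrophil markers none passed (8.89 to 10.81 and 9.56 to 10.69). Of 6 B cell markers, 1 was higher (8.77 to 9.74 and 8.44 to 9.84), and of 5 platelet markers 1 was lower (8.67 to 10.65 and 9.29 to 10.72). Of 5 natural killer and cytotoxic markers (7.95 to 10.0 and 7.98 to 10.2) and 4 plasmacytoid dendritic cell markers (9.21 to 10.0 and 9.11 to 9.97), none passed. All ranges overlapped between breeds. With breed and chip means removed, the mean level of the neutrophil markers correlated with ISG15 at r = 0.410 and that of the monocyte markers at r = 0.387 over the 21 pigs. For the plasmacytoid dendritic cell markers r was 0.311, for the other cell types it was between -0.165 and 0.0686, and for HERC5 it was 0.937. DD_06 had the highest mean level of the plasmacytoid dendritic cell markers of all 21 pigs, at 10.03 beside an LW maximum of 9.97, and the highest T cell marker level of the DD pigs, at 9.93, which is within the LW range. The 4 plasmacytoid dendritic cell genes tested were GZMB, IL3RA, SPIB and TCF4, while CLEC4C and IRF8 were not tested. GZMB is also one of the natural killer and cytotoxic markers. The part of cell composition in the difference of ISG15 and HERC5 was not tested.

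In 3 settings, ISG15 and HERC5 did not pass the threshold. Without chip 2, the log2 FC was 0.73 for ISG15 (limma adjusted p = 0.132) and 0.63 for HERC5 (limma adjusted p = 0.116). Without chip 3, it was 0.88 (limma adjusted p = 0.331) and 0.72 (limma adjusted p = 0.333), and the number of genes called fell from 2430 to 114. With array brightness as a covariate, it was 1.15 (limma adjusted p = 0.0905) and 0.95 (limma adjusted p = 0.0954), with 240 genes called. The DD arrays were dimmer in the median, so this covariate shares variation with breed. In each of the 3 settings the direction was kept.

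**Figure D5:**
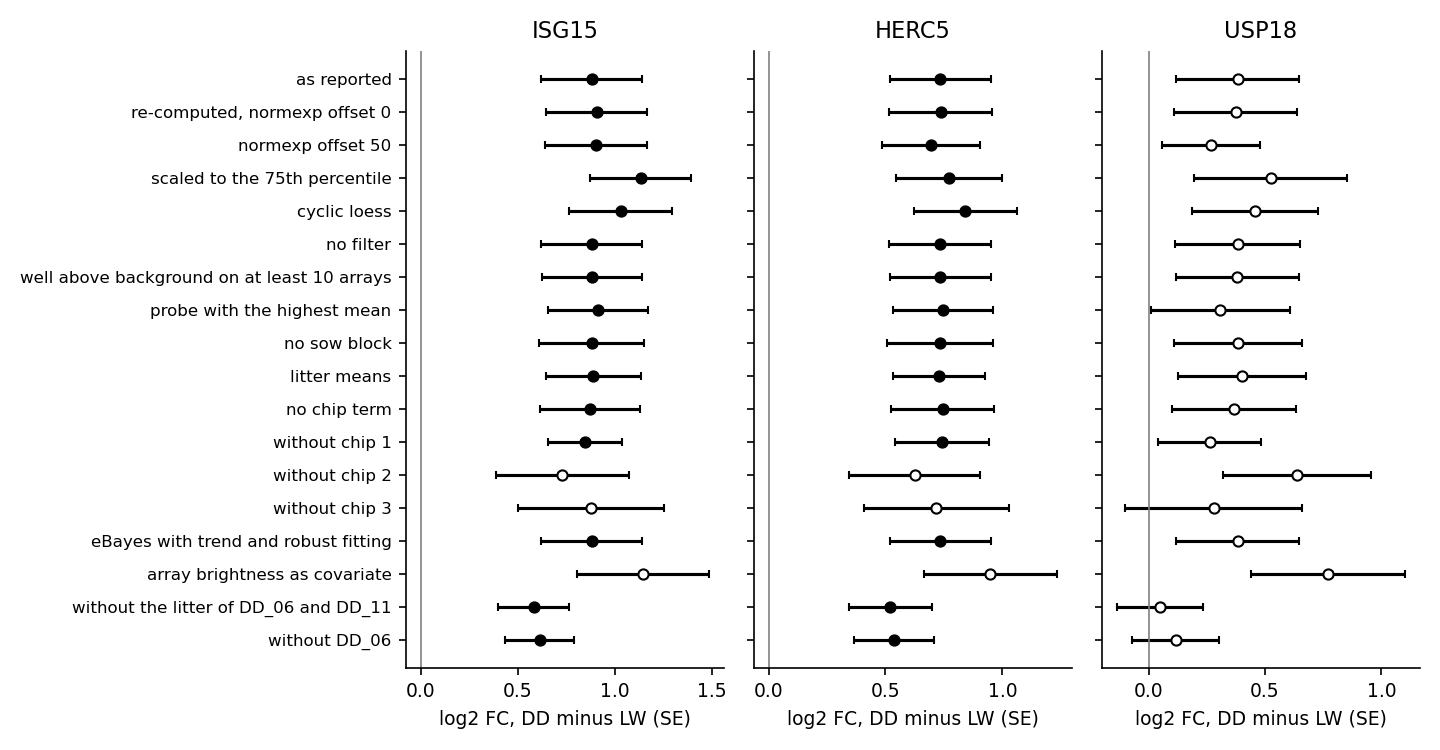
Log2 FC between breeds (x axis, DD minus LW, with SE) of ISG15, HERC5 and USP18 as reported and under each other way of processing or choice of arrays, filled where the limma adjusted p was below 0.05. ISG15 stays between 0.58 and 1.15 and HERC5 between 0.52 and 0.95, and USP18 is between 0.05 and 0.77 with no call.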

How the data were processed

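Blood RNA from 10 DD pigs and 11 LW pigs was measured on one-colour arrays. The deposited scanner files give unnormalized intensity values (Agilent Feature Extraction 10.7.3.1, per the labels), with flags for signal above background and saturation. The authors deposited log2 values, background corrected with normexp and quantile normalized, after removing 3 of their arrays. Deposited values correlated with values re-computed from the scanner files at r = 0.998 to 0.999 on each array. Precision is limited by how many arrays there are.

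Breed came from the labels, and chip and sow from the study's animal table. The 25% of probes with the lowest mean were removed, which left 45228. Of 60305 probes, 25267 had a gene name (21123 by symbol, 2457 by locus, 1424 by accession, 189 by an older symbol and 74 by description). Kept probes of a gene were averaged, which gave 10259 genes. Differences were fitted in limma with fixed terms for breed and chip and with the sow (litter) as random block (duplicateCorrelation, consensus correlation -0.100). Adjustment after eBayes was by Benjamini-Hochberg, over every gene or probe tested, at a threshold of 0.05. Litter means were compared by exact permutation. The gene-level limma fit was tested on simulated data, with planted differences larger than those of the members. The permutations, correlations and list counts were not tested in this way.

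The genes named were the members and their probes, the tested genes of the receptor, ligase and paralog lists, in the other lists at most the 6 called genes with the smallest p in each direction, and the 10 genes most correlated with ISG15. Some genes counted in the lists are not reported here by name. Members, lists and rules were chosen with earlier results of these data known. Promoter and protein sequences were not used here, and a planned motif search in promoters was not run. Other settings are named in the closing section. Tools were R (4.3.3), limma (3.58.1), statmod (1.5.0), data.table (1.17.8), Python (3.11.15), pandas (2.3.3) and matplotlib (3.10.9).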

Additional observations from a re-analysis of the deposited data

Results flagged for a closer look

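Among the 10 DD pigs, DD_06 was far from the others. Its gap to the next pig, as a share of the range of the DD pigs, was 0.555 for ISG15 and 0.550 for USP18, above Dixon's 95% critical value. By probe, the share was 0.554 for ISG15 probe 1, 0.556 for ISG15 probe 2, 0.513 for USP18 probe 1 and 0.518 for the unnamed spot with the letters of ISG15 probe 2. For HERC5 it was 0.325 and for USP18 probe 2 it was 0.438, both under that value. Chance alone gives a gap above that critical value in about 1 in 20 groups, 10 values were examined, and all of them come from the same pig and array.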

How the results depend on the processing

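ISG15 and HERC5 kept their direction in every setting run, at 0.58 to 1.15 and 0.52 to 0.95 on the log2 scale, and USP18 stayed above 0 (0.05 to 0.77) without a call. The calls of ISG15 and HERC5 held with re-computed values, an offset of 50, scaling to the 75th percentile, cyclic loess, no filter or a filter on signal above background, the brightest probe, litter means, robust fitting, no chip term, no sow block, and without chip 1. They did not pass without chip 2 (0.73 and 0.63, adjusted p = 0.132 and 0.116, 0 members and 1 member probe called), without chip 3 (0.88 and 0.72, adjusted p = 0.331 and 0.333, 0 members and 0 member probes called, 114 genes called in all) or with array brightness as a covariate (1.15 and 0.95, adjusted p = 0.0905 and 0.0954, 0 members and 0 member probes, 240 genes). The cause was not tested. With no chip term, 704 genes and 2 member probes were called, and both members. With no sow block, 1827 genes were called, beside 2430 with it, and the SE for ISG15 was 0.27 beside 0.26. The consensus correlation within litters was negative, so the block did not widen the SE. Chosen after seeing the data, HERC5 from its symbol-named probe gave 0.75, and leaving out the litter of DD_06 and DD_11 gave 0.58 for ISG15, 0.52 for HERC5 and 0.05 for USP18.

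With each pig left out in turn, ISG15 ranged from 0.61 without DD_06 to 1.05 without DD_01 (adjusted p 0.00824 to 0.0457), HERC5 from 0.54 to 0.88 (0.00929 to 0.0479) and USP18 from 0.12 to 0.53 (0.139 to 0.659), with 2 members called each time. Member probes called ranged from 2 (without LW_12 or LW_24) to 4, and genes called from 1343 without DD_21 to 3384 without DD_06, with 1414 without LW_18, 1514 without LW_12, 1605 without LW_24 and 1617 without DD_23. No paired analysis was possible because the pig numbers are not shared between the breeds. USP18 probe 2 was not well above background on every array.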
